A study of Mus musculus with 12 samples.

Results

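The glycoprotein hormone subunit genes Cga, Lhb, Fshb and Tshb and the gonadotropin-releasing hormone (GnRH) receptor gene Gnrhr were examined in pituitary tissue of normal and POMC KO mice. All probe sets whose platform annotation named exactly 1 of these 5 genes were taken, which gave 7 of the 45037 probe sets that are not controls. Of those 45037, 34945 named 1 gene, for 18193 genes in all. Lhb, Fshb, Tshb and Cga had 1 probe set each and Gnrhr had 3.

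Transcripts were read by hybridization to short oligonucleotide probes on 12 Affymetrix Mouse Genome 430 2.0 arrays, and the deposited values are log2 signals. Pituitary tissue of heterozygous POMC KO mice was on 8 arrays, that of homozygous mice on 2 and normal pituitary on 2, with no treatment in any group. According to the methods the tissue from both KO genotypes was spontaneous pituitary tumor and the normal reference was pooled. Strain, age and sex of these mice were not given in the sources used here, and whether each normal array holds a pool is not settled. Arrays of tumor RNA formed 5 pairs of consecutive numbers (heterozygous 1-2, 3-4, 5-6 and 7-8, homozygous 1-2). Within a pair the correlation across probe sets was 0.997 to 0.998 and at most 4 probe sets differed by more than 2-fold, whereas arrays of different heterozygous pairs differed at 433 to 982 and the normal arrays at 309. Each pair was averaged and counted as 1 sample, which left 4 heterozygous samples, 1 homozygous sample and 2 normal samples. The pairing was read from the values, while the series design counts a mouse for every array. The p-values measure the spread between these samples, and the spread of the single homozygous sample was taken to equal that of the other groups.

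Luteinizing hormone (LH), follicle-stimulating hormone (FSH) and thyrotropin (TSH) are heterodimers of one common alpha subunit, encoded by Cga, and a specific beta subunit, encoded by Lhb, Fshb or Tshb. Gonadotrophs of the anterior lobe make LH and FSH and carry the GnRH receptor, a G protein-coupled receptor through which the hypothalamus drives both hormones. Thyrotrophs make TSH under hypothalamic thyrotropin-releasing hormone. Pomc, the targeted gene, encodes the precursor of corticotropin and of the melanotroph peptides. The authors of the study describe the tumors of this model as apparently arising from melanotrophs.

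The bases just before the transcription start are given for the 5 genes so that the genes can be set side by side. The genes occupy chr4:34893779-34907374 (Cga, plus strand), chr7:45417608-45421855 (Lhb, plus), chr2:107055986-107059651 (Fshb, minus), chr3:102777398-102789082 (Tshb, minus) and chr5:86180754-86197901 (Gnrhr, minus) in RefSeq on GRCm38.p6. RefSeq lists 3 curated transcripts each for Tshb and Gnrhr and 1 for each of the others. All 5 were matched to a RefSeq promoter by symbol, and the 150 bases upstream of the start are printed 5′ to 3′ on the gene's strand. The start is the one the RefSeq promoter table gives, 1 per gene, and for Lhb and Tshb it lies inside the gene's full span, so that other starts are not covered. Capitals mark matches to the short motifs that are described after the sequences.
Cga (chr4:34893629-34893778, plus strand): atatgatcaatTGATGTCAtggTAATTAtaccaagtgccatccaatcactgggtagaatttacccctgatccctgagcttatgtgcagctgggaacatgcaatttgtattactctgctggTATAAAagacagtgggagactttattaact
Lhb (chr7:45420796-45420945, plus strand): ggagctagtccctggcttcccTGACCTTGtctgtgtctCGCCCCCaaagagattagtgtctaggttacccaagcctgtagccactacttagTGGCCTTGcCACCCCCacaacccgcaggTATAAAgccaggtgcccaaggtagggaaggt
Fshb (chr2:107059652-107059801, minus strand): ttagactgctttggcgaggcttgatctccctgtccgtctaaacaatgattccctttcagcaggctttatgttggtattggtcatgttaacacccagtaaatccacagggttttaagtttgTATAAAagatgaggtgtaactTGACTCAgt
Tshb (chr3:102782715-102782864, minus strand): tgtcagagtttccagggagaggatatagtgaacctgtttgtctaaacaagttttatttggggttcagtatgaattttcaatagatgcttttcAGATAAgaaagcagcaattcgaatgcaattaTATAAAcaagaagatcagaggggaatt
Gnrhr (chr5:86197902-86198051, minus strand): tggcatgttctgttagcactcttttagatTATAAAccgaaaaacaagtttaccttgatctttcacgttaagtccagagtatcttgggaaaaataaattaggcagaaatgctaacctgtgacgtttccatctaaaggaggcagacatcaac
The 8 motifs were searched on both strands, and the matches in these windows do not overlap one another. TATAAA, the core of a TATA box, was present in all 5 windows and in 7.57% of the 32851 promoters. It began 30 bases before the start in Cga and Fshb, 31 in Lhb and 27 in Tshb, and 121 bases before it in Gnrhr. In Lhb, CAAGGNCA, the element of steroidogenic factor 1 (Nr5a1), matched on the minus strand at 129 and 59 bases, and the early growth response core CNCCCCC matched at 112 and 50 bases. These were held by 3.09% and 24.5% of all promoters. The cyclic AMP response element TGANGTCA (5.7%) and the homeodomain core TAATTA (2.73%) occurred in Cga, the AP-1 element TGANTCA (4.24%) in Fshb and the GATA element AGATAA (5.65%) in Tshb. The homeodomain element TAATCC (3.6%) was in none of the windows. A match describes letters in these windows and says nothing of binding in these samples.

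Expression of the targeted gene followed the homozygous label. Pomc was 15.28, 15.30, 15.27 and 15.15 in the heterozygous samples, 7.18 in the homozygous sample and 15.08 and 15.11 in normal pituitary, on the log2 signal scale. The homozygous sample was 7.92 lower than normal (limma with Benjamini-Hochberg adjustment over 24486 probe sets, adjusted p = 1.11e-06). The heterozygous difference of 0.16 was not significant (adjusted p = 0.330). The highest value on any array was 15.31, so that Pomc and Cga lie near the upper end of the scale, where differences can be compressed.

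In heterozygous POMC KO tumors the 3 beta subunit genes and Gnrhr were strongly reduced. Fshb was 59.1-fold lower than in normal pituitary, Lhb 28.6-fold, Gnrhr 15.6-fold and Tshb 14.9-fold, and Cga was 4.55-fold lower without passing the test. Of the 5 genes, 4 were called lower (adjusted p under 0.05 and a change of more than 2-fold), against 3.77% of all tested probe sets. Gnrhr reached the filter on low values through the normal and homozygous arrays and on no heterozygous array, which favoured its call. The calls apart from it were Lhb, Fshb and Tshb. In all 5 genes every heterozygous sample lay below both normal samples, which held for 21.8% of tested probe sets. In bulk tissue, fewer cells of a type and less RNA per cell cannot be told apart.

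**Figure D1:**
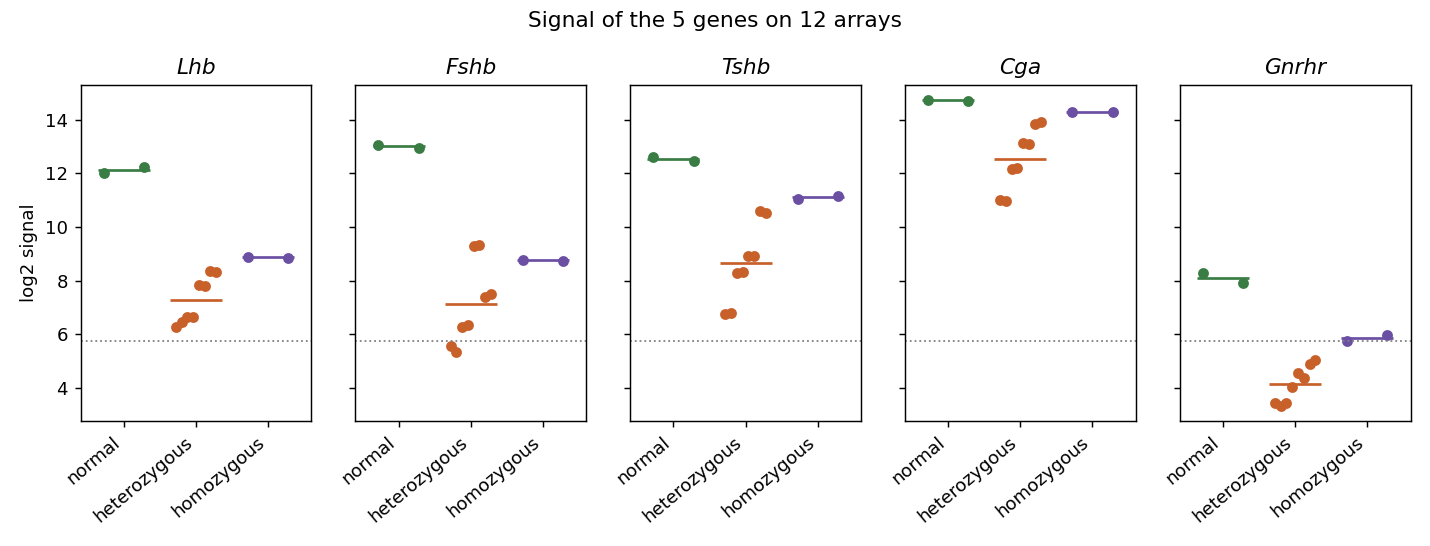
Log2 signal (vertical axis) of the brightest probe set of each gene on the 12 arrays, by group. Each point is 1 array, solid lines are group means and the dotted line is the median of all values (5.74). Every heterozygous array lies below both normal arrays in all 5 panels, and the homozygous arrays lie between these groups except in Fshb.

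Lhb, which encodes the beta subunit of LH, was 12.02 and 12.22 in the normal samples. Its signal was 6.35, 6.63, 7.81 and 8.33 in heterozygous samples 1-2, 3-4, 5-6 and 7-8 and 8.86 in the homozygous sample. All 4 heterozygous samples were far below normal, with the homozygous sample above them and the groups apart. The heterozygous mean was 7.28 ± 0.94 (SD, n = 4) against 12.12 ± 0.15 (SD, n = 2) in normal tissue, a log2 fold change of -4.84 (SE 0.53, 95% confidence interval -6.09 to -3.59). With limma and Benjamini-Hochberg adjustment the adjusted p was 0.00127, and the fold change was the third lowest of the 24486 tested.

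Fshb, which encodes the beta subunit of FSH, was 13.06 and 12.96 in normal pituitary. The heterozygous samples read 5.44, 6.29, 9.32 and 7.43 and the homozygous sample 8.75. All tumor samples were low, and heterozygous sample 5-6 stood above the others and above the homozygous sample. The mean was 7.12 ± 1.68 (SD, n = 4) against 13.01 ± 0.07 (SD, n = 2), a log2 fold change of -5.89 (SE 0.93, limma adjusted p = 0.00511) and the lowest of all tested probe sets. Heterozygous sample 1-2 lay below the median of all values, so that the size of its loss is not exact.

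Tshb encodes the beta subunit of TSH. Its signal was 6.78, 8.30, 8.91 and 10.57 in the heterozygous samples, 11.10 in the homozygous sample and 12.61 and 12.47 in the normal samples. Heterozygous sample 1-2 was the lowest and sample 7-8 approached the homozygous sample, and none reached the normal range. The log2 fold change was -3.90 (SE 0.87, limma adjusted p = 0.0191), with a heterozygous mean of 8.64 ± 1.57 (SD, n = 4) against 12.54 ± 0.10 (SD, n = 2). Without normal replicate 1 or 2 the call was lost (limma adjusted p = 0.117 and 0.0979), although the change stayed at -3.83 and -3.97.

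Cga, which encodes the shared alpha subunit, kept the most signal. It was 10.98, 12.20, 13.11 and 13.87 in the heterozygous samples, 14.30 in the homozygous sample and 14.73 and 14.72 in the normal samples. The heterozygous samples spread over 2.89 log2 units, and the highest of them was still below normal. The log2 fold change was -2.19 (SE 0.70, 95% confidence interval -3.81 to -0.56), with a limma adjusted p of 0.0612 and an unadjusted p of 0.0153. It was called in 7 other settings, among them without heterozygous sample 7-8 (-2.63, limma adjusted p = 0.0171).

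The brightest Gnrhr probe set (1421665_a_at) was 8.27 and 7.93 in normal pituitary and fell below the median of all values on every heterozygous array. The heterozygous samples read 3.38, 3.72, 4.46 and 4.97 and the homozygous sample 5.85. The groups did not overlap, and the homozygous sample again lay between them. The log2 fold change was -3.97 (SE 0.42, limma adjusted p = 0.00106), and its size is not exact because the heterozygous values are so low. The other Gnrhr probe sets did not reach the median on any array and were not tested with the rest. Of these, 1427694_at was 3.46, 3.18, 3.58 and 3.58 in heterozygous samples, 3.68 in the homozygous sample and 4.97 and 4.62 in normal pituitary, the same order of groups at a lower signal. In a fit over all 45037 probe sets it changed by -1.35 (SE 0.16, limma adjusted p = 0.00193). The remaining probe set, 1427731_at, stayed between 3.66 and 4.05 throughout and changed by -0.31 in that fit (limma adjusted p = 0.0693).

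The tumors kept different fractions of the normal signal. Fshb was at 0.526%, 0.953%, 7.78% and 2.10% of the normal mean in heterozygous samples 1-2, 3-4, 5-6 and 7-8, whereas Cga was at 7.46%, 17.3%, 32.6% and 55.3%. Tshb ran from 1.85% to 25.6%, Lhb from 1.84% to 7.25% and Gnrhr from 3.79% to 11.5%. For Lhb, Tshb, Cga and Gnrhr the heterozygous samples fell in the same order, with 1-2 lowest and 7-8 highest, and Fshb departed from it through sample 5-6. Over all probe sets, too, heterozygous arrays 1 and 2 differed most from normal array 1 (3585 and 3510 by more than 2-fold). Arrays 7 and 8 differed least (2549 and 2552). The homozygous sample kept 74.4% for Cga, 37.0% for Tshb, 21.1% for Gnrhr, 10.5% for Lhb and 5.23% for Fshb.

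**Figure D2:**
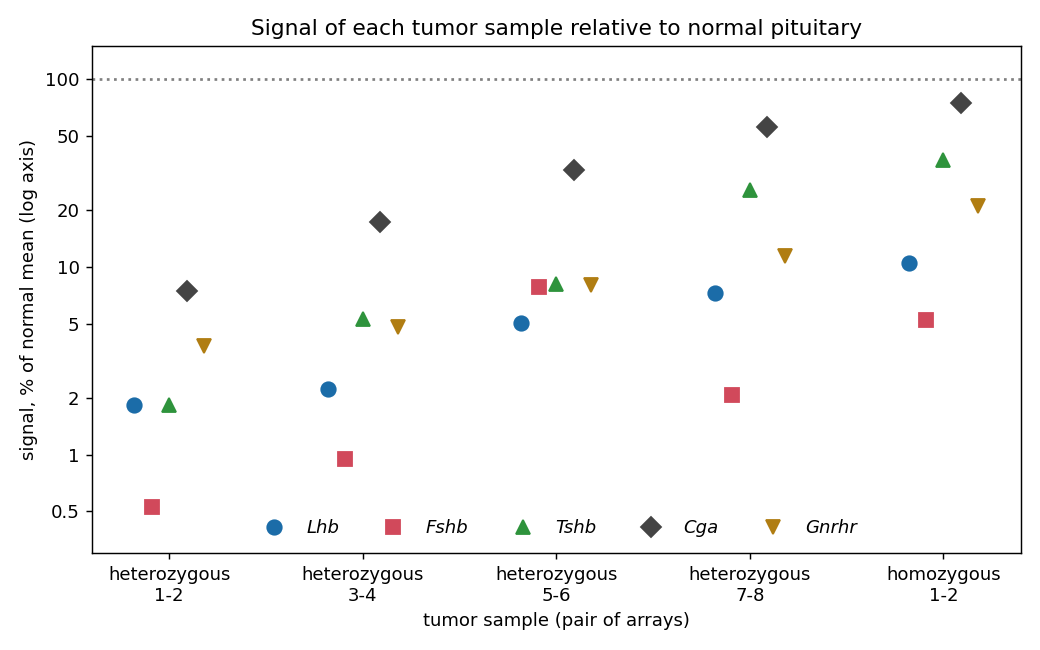
Signal of each tumor sample as a percentage of the mean of the 2 normal samples, on a log axis, with 1 symbol per gene and 1 position per pair of arrays. Cga was the highest of the 5 genes in every tumor sample, from 7.46% to 74.4%, and Fshb the lowest in every sample except heterozygous 5-6.

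The beta subunit genes lost more signal than Cga within the same samples. The difference between a beta subunit's change and that of Cga averaged -3.70 log2 units for Fshb, -2.65 for Lhb and -1.71 for Tshb in heterozygous tumors. For Lhb it was -2.02, -2.96, -2.70 and -2.93 in the 4 samples and -2.83 in the homozygous sample. All 4 heterozygous samples were below both normal samples for each of the 3 genes. The two-sided exact permutation p was 0.0667 for each (n = 4 and 2; 0.0667 after adjustment over the 3), the smallest that 15 arrangements allow, so that this test cannot pass 0.05 here. Cga lies near the top of the scale, and the part of compression there was not tested.

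In the homozygous POMC KO tumor all 5 genes were below normal, by less than the heterozygous mean, and none was called lower, against 1.07% of all tested probe sets. The log2 fold changes from normal were -4.26 for Fshb (SE 1.32, limma adjusted p = 0.151) and -3.25 for Lhb (SE 0.75, limma adjusted p = 0.0749). They were -2.25 for Gnrhr (SE 0.59, limma adjusted p = 0.101), -1.44 for Tshb (SE 1.24, limma adjusted p = 0.599) and -0.43 for Cga (SE 0.98, limma adjusted p = 0.864). The last 2 became -3.17 and -1.53 with the level of Xist, a marker of sex described after the comparisons, as a covariate. The unadjusted limma p was under 0.05 for 3 of the 5, Lhb (0.00309), Gnrhr (0.00605) and Fshb (0.0136). With the 12 arrays taken as separate samples, these 3 genes were called lower, against 1.97% of tested probe sets. Fshb was also called without heterozygous sample 5-6, against 1% of probe sets, and Lhb and Gnrhr without sample 7-8, against 1.24%. Both comparisons with normal use the same 2 normal samples.

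The homozygous sample exceeded the heterozygous mean by 2.46 for Tshb, 1.76 for Cga, 1.72 for Gnrhr, 1.63 for Fshb and 1.58 for Lhb on the log2 scale. None of these differences was called, against 0.212% of tested probe sets called higher, and the limma adjusted p ran from 0.369 for Gnrhr to 0.796 for Fshb. The 95% confidence interval excluded 0 for Gnrhr (0.46 to 2.98) and included it for the other 4, from -1.20 to 4.45 for Fshb. In Lhb, Tshb, Cga and Gnrhr the homozygous sample lay above all heterozygous samples and below both normal samples, an order found in 6.52% of tested probe sets.

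**Figure D3:**
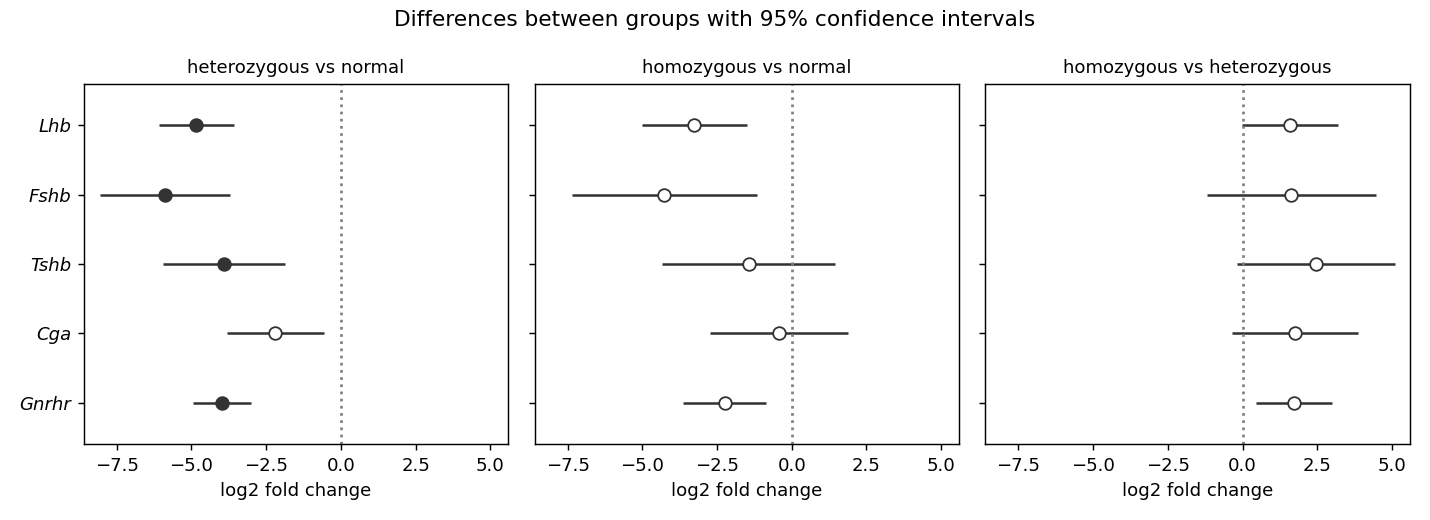
Log2 fold changes (horizontal axis) of the 5 genes in the 3 comparisons, with 95% confidence intervals from limma. Filled circles are called (adjusted p under 0.05 and more than 2-fold), which applies to Lhb, Fshb, Tshb and Gnrhr in the heterozygous comparison with normal and to no other difference.

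Sex of the animals differed between samples by their transcripts. Xist, transcribed from the inactive X chromosome of females, was 5.07 and 4.57 in normal pituitary, 4.58 in heterozygous sample 1-2 and between the normal values in sample 5-6. It was 10.93 and 11.25 in heterozygous samples 3-4 and 7-8 and 11.20 in the homozygous sample. The Y-linked Eif2s3y was 8.62 to 8.89 in the 4 samples with low Xist and 3.37 to 3.66 in the others, and Kdm5d and Uty divided the samples in the same way. Among samples with low Xist alone (heterozygous 1-2 and 5-6 and both normal samples), all 5 genes were called lower, against 4.61% of tested probe sets. The limma log2 fold changes were -5.04 for Lhb, -5.63 for Fshb, -4.69 for Tshb, -2.68 for Cga (adjusted p = 0.0362) and -4.18 for Gnrhr. This subset was chosen after the data had been seen. It leaves out sample 7-8, the highest heterozygous sample for Lhb, Tshb, Cga and Gnrhr. No normal sample had high Xist, so that the homozygous sample had no normal sample of like Xist level. With the Xist level as a covariate, the homozygous difference from normal was -3.17 for Tshb (limma adjusted p = 0.286) and -1.53 for Cga (limma adjusted p = 0.569), and none of the 5 genes was called.

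Across the 7 samples the 5 genes varied together. Pearson's correlation was 0.993 between Lhb and Gnrhr, 0.978 between Tshb and Cga and 0.964 between Lhb and Fshb, and the lowest was 0.839 between Fshb and Cga. These values describe 7 samples that fall in 3 groups and carry the difference between tumor and normal. Among 12311 other genes, the closest in pattern were Gng11 (0.997), Col4a4 (0.996) and Erc2 (0.992) for Lhb. Those closest to Fshb were Cul2 (0.993), Sacm1l (0.990) and Gulp1 (0.990), and to Tshb Frk (0.999), Bcat1 (0.998) and Nr4a1 (0.997). Pgap1 (0.988), Crebl2 (0.988) and Armh4 (0.987) were closest to Cga, and Enah (0.995), Gng11 (0.995) and Szrd1 (0.994) to Gnrhr. Gng11, a G protein gamma subunit gene, was thus listed for both Lhb and Gnrhr, and fell by 0.88 (limma adjusted p = 0.00436), less than 2-fold.

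Of 13 tested transcription factors known to act on these genes, 7 were called lower and none higher in heterozygous tumors, where 4.55% of the 12316 tested genes were called lower and 5.53% higher. Nr0b1 and Nr5a1 reached the filter on low values only with the normal arrays, so that the filter favoured lower values in tumors. Of the other 11, 5 were called lower. The rest of these 11 changed by -0.04 to 0.73. Over all 13 the median log2 difference was -1.08, against -0.00 over all genes. Gata2, a zinc finger factor of gonadotrophs and thyrotrophs, changed by -3.52 (SE 0.18) and Nr0b1, the partner of steroidogenic factor 1 also called Dax1, by -3.14 (SE 0.20), a size that is not exact because its heterozygous values (3.13 to 3.89) lie below the median of all values. Foxl2, a forkhead factor that acts on Fshb and Cga, changed by -2.60 (SE 0.17) and Isl1, a LIM homeodomain factor, by -2.38 (SE 0.56). Nr5a1, which encodes steroidogenic factor 1 itself and is named here after its values were seen, changed by -1.89, with heterozygous values below that median as well. In the homozygous tumor 4 of the 13 were called lower and 1 higher, against 1.32% and 1.43% of genes. The lower ones were Gata2 (-2.32) and Foxl2 (-1.36), and also Nr0b1 (-1.89) and Nr5a1 (-1.35). The last 2 reached the filter only with the normal arrays, so that here too the filter favoured lower values. The higher one was Pitx1 (1.14), also named after its values were seen. None of these 5 homozygous calls held when either normal sample was left out, and the heterozygous count became 5 without normal replicate 1 and 4 without normal replicate 2.

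Gata2 shows the pattern in single samples. It was 6.23, 6.30, 6.61 and 6.82 in the heterozygous samples, 7.70 in the homozygous sample and 9.96 and 10.06 in normal pituitary. The heterozygous samples lay close together, below the homozygous sample, and kept the same order as for Lhb.

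Of 33 tested genes of GnRH signalling downstream of the receptor, 5 were called lower and none higher in heterozygous tumors, against 4.55% and 5.53% of all tested genes. An unadjusted limma p under 0.05 was found for 9 of the 33 in heterozygous tumors, where the list's median log2 difference was -0.10, and none was called in the homozygous tumor, where 2 had an unadjusted limma p under 0.05. Plcb1, a phospholipase C that makes the second messengers of the receptor, changed by -1.93 (SE 0.33). The protein kinase C genes Prkce and Prkca changed by -1.59 (SE 0.37) and -1.25 (SE 0.22), and Camk2g, a calcium and calmodulin-dependent kinase, by -1.25 (SE 0.18). The fifth was Rgs2 (-1.04), a regulator of G protein signalling that lies outside the rule for named genes. Without normal replicate 1 or 2 the count was 2 of 33.

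Of the 9 tested thyroid axis genes, 3 were called lower and 1 higher in heterozygous tumors, against 4.55% and 5.53% of all tested genes. Trhr, the receptor for thyrotropin-releasing hormone, reached the filter only with the normal arrays, and without it and Thrb, of which the same is true, 2 of 7 were called lower. Trhr changed by -3.27 (SE 0.22, not an exact size at these low heterozygous values) and Rxrg, a retinoid X receptor, by -2.91 (SE 0.28). The deiodinases, which activate or inactivate thyroid hormone, moved in opposite directions, with Dio2 at -1.36 (SE 0.24) and Dio1 at 2.01 (SE 0.16). In the homozygous tumor 1 was called lower, against 1.32% of all genes, Rxrg (-2.04), and not without either normal sample. Dio1 was 9.05, 9.16, 9.43 and 8.93 in heterozygous samples, 7.26 in the homozygous sample and 7.03 and 7.24 in normal pituitary. The homozygous sample was thus just above the normal samples, and its difference from heterozygous tumors was -1.89 (limma adjusted p = 0.0190), a call that was lost without either normal sample.

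Trhr was 3.21, 3.11, 3.22 and 3.84 in heterozygous samples, 5.78 in the homozygous sample and 6.47 and 6.76 in normal pituitary. It was higher in the homozygous sample than in heterozygous tumors by 2.43 (limma adjusted p = 0.0234), a call that Tshb itself did not reach, and it was lost without either normal sample. The difference between Trhr and Tshb was not tested.

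Of the 4 tested receptors of the gonadal and adrenal feedback list, not all of them steroid receptors, 2 were called lower in heterozygous tumors, against 4.55% of all tested genes. Nr3c1, the glucocorticoid receptor, changed by -2.38 (SE 0.29) and Esr1, estrogen receptor alpha, by -1.94 (SE 0.47), and none was called in the homozygous tumor. Without either normal sample 1 of the 4 was called, and Esr1 was not. Of 10 genes of hormone glycosylation, St6gal1, a sialyltransferase, was the 1 called (-1.85, SE 0.27), against 4.55% of all tested genes called lower. None of 14 genes of activin, inhibin and BMP regulation of Fshb was called in either genotype by limma, although 8 had an unadjusted p under 0.05 in heterozygous tumors and 3 in the homozygous tumor. Of its brightest members, Smad4 changed by 0.15 and Tgfbr3, the betaglycan coreceptor for inhibin, by -0.96 (limma adjusted p = 0.00451), just short of 2-fold. Gpha2, the alpha subunit of a related glycoprotein hormone, changed by 0.79 (limma adjusted p = 0.122) and was the only tested gene among 5 other family genes and hormone receptors.

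**Figure D4:**
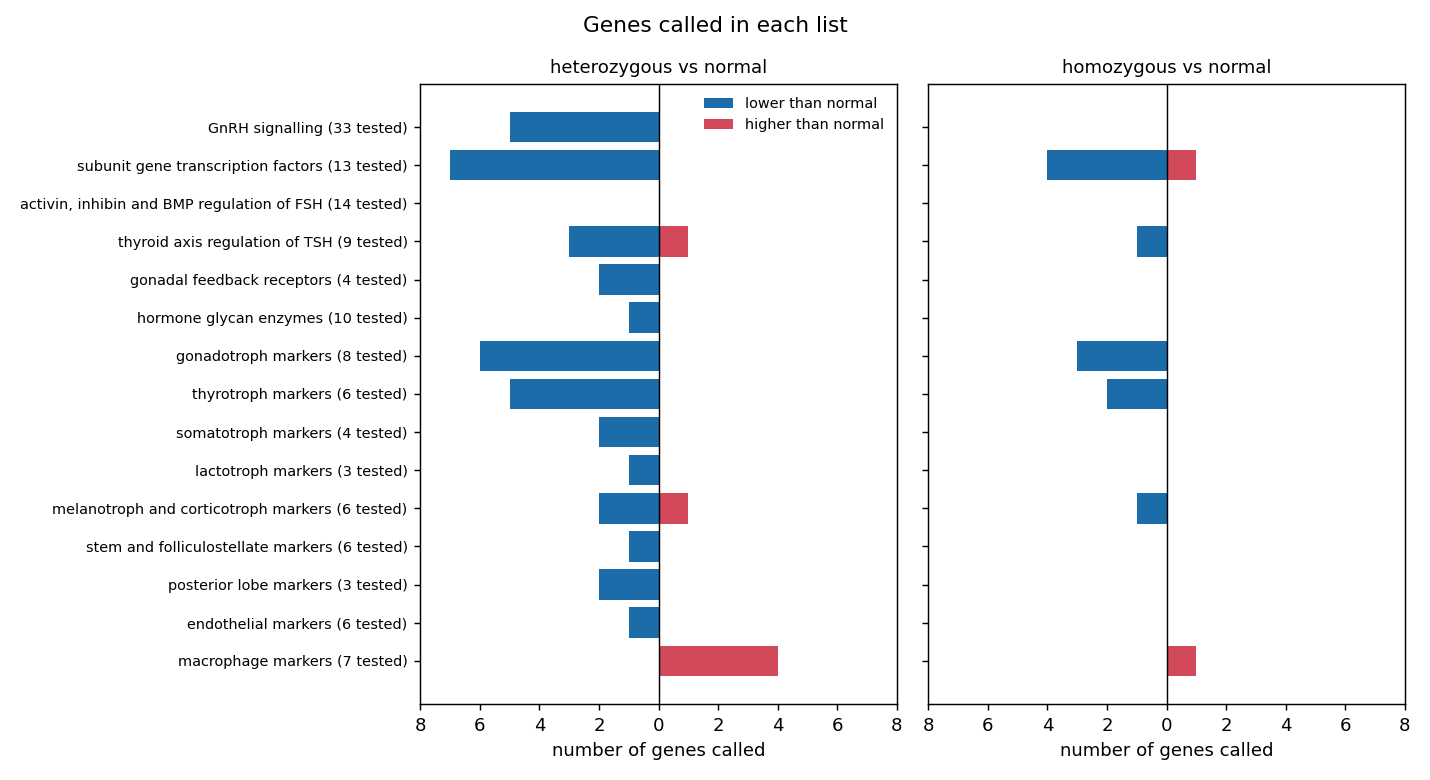
Number of genes called lower (bars to the left) and higher (bars to the right) than normal in each list, for heterozygous and homozygous tumors. The transcription factor list holds 7 lower calls of 13 tested genes in heterozygous tumors, against 4.55% of all tested genes. Without the 2 that reached the filter only with the normal arrays it holds 5 of 11. The macrophage markers are the list with 4 higher calls, against 5.53% of all tested genes.

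Most tested markers of the cells that make these hormones were also called lower, and most of them are genes already described. Beside the 5 genes, 3 of 4 tested gonadotroph markers (Gata2, Foxl2 and Nr5a1, with Foxp2 at 0.28) were called lower in heterozygous tumors, against 4.55% of all tested genes. So were 4 of 4 tested thyrotroph markers (Trhr, Dio2, Gata2 and Foxl2). Nr5a1 and Trhr reached the filter only with the normal arrays, so that the filter favoured lower values in tumors, and Gata2 and Foxl2 are in both lists. In the homozygous tumor 3 and 2 were called lower, Nr5a1 among the 3, against 1.32% of all tested genes. No such homozygous call held without either normal sample. Mean log2 levels of these other gonadotroph markers were 8.56 to 8.69 in normal, 6.43 to 7.03 in heterozygous and 7.44 in homozygous tissue. Those of the thyrotroph markers were 8.56 to 8.69, 5.67 to 6.33 and 7.50. Counting Tshb and Cga as well, 5 of 6 thyrotroph markers were lower (4 of 5 without Trhr), and 3 of 6 without either normal sample.

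Markers of other cell types were also called in heterozygous tumors, where 4.55% of all tested genes were called lower and 5.53% higher. Of 4 somatotroph markers, Dlk1 (-4.22, SE 0.94) and Ghrhr, the growth hormone-releasing hormone receptor (-3.13, SE 0.56), were called lower in heterozygous tumors, and both calls were lost without either normal sample. Gh (-0.70) and Neurod4 (-0.82), which lie outside the rule for named genes, were not called. Mean log2 levels of the somatotroph list ran from 8.13 to 10.51 in heterozygous samples, against 11.32 to 11.34 in normal pituitary and 10.49 in the homozygous sample. In the lactotroph list 1 of 3 was lower, Esr1, as long as both normal samples were included, with mean levels of 11.46 to 12.01, 12.18 to 12.30 and 12.23 in the same order. Prl (-0.25) and Drd2 (0.74), likewise outside that rule, were not called. Gh and Prl, at 14.86 and 14.72 in normal pituitary, lie near the upper end of the scale. Of 6 melanotroph and corticotroph markers, Pax7, the melanotroph selector, was higher (1.48, SE 0.20) and Neurod1 (-2.84, SE 0.16) and Crhr1 (-1.44, SE 0.14) were lower, with mean levels of 9.30 to 9.38 in heterozygous, 9.87 to 9.88 in normal and 8.70 in homozygous tissue, where Pomc was the 1 lower call. Without Pomc the mean levels were 8.11 to 8.22 in heterozygous, 8.82 to 8.84 in normal and 9.01 in homozygous tissue, so that the homozygous sample was then above normal. Heterozygous values of Neurod1 and Crhr1 lay below the median of all values.

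Posterior lobe transcripts Avp (-2.98, SE 0.38) and Oxt (-2.69, SE 0.20), which encode vasopressin and oxytocin, were lower in heterozygous tumors, 2 of 3 tested. Of all tested genes, 4.55% were called lower and 5.53% higher there. Mean levels of the posterior lobe list were 5.52 to 6.85 in heterozygous, 8.13 to 8.16 in normal and 7.51 in homozygous tissue. Macrophage markers were higher for 4 of 7, Lyz2 (4.37, SE 0.28), Cd68 (2.76, SE 0.33), C1qa (1.54, SE 0.23) and Adgre1 (1.08, SE 0.14), with mean levels of 8.07 to 8.66 against 6.59 to 6.82 in normal and 7.81 in homozygous tissue, where Lyz2 was the 1 called (3.10) and was not called without either normal sample. Among stem and folliculostellate markers 1 of 6 was lower, Aldh1a1 (-1.89, not called without either normal sample), with mean levels of 7.11 to 7.51 in heterozygous, 7.65 to 7.92 in normal and 7.22 in homozygous tissue. Among endothelial markers 1 of 6 was lower, Tek (-1.42, with heterozygous values below the median of all values), with 6.34 to 6.67, 6.94 to 7.00 and 7.13 in the same order, and the 1 tested erythrocyte marker, Alas2, was not called. The part of these cell types in the loss of the 5 genes was not tested.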

How the data were processed

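Pituitary RNA was profiled on 12 Affymetrix Mouse Genome 430 2.0 arrays. The authors deposited log2 values made by the Robust Multichip Average algorithm, for which the labels name Affymetrix Expression Console and the methods GeneSpring GX, and no absolute calls were used here. This algorithm gives all arrays a common distribution, so that values are relative to the rest of the array, and the number of arrays limits the precision. Groups came from the sample labels. The platform annotation named 1 gene for 34945 probe sets, several for 932 and none for 9160, and 64 controls were dropped. Testing required a value no lower than the overall median (5.74) on at least 2 arrays, which left 24486 (12316 genes, each represented by its brightest tested probe set). Paired arrays were averaged, and limma 3.58.1 in R 4.3.3 fitted all 3 groups with empirical Bayes moderation and Benjamini-Hochberg adjustment, with 4 residual degrees of freedom. Calls needed an adjusted p under 0.05 and more than 2-fold change. The scripts were tested on simulated data.

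The genes named are all member probe sets, Pomc, Xist, the 3 genes most correlated with each member over the 7 samples, and of each list up to 4 called genes with the largest heterozygous change, or the 2 brightest where none was called. The members, lists and tests were chosen with earlier results of these data known. Promoter sequences came from RefSeq (GRCm38.p6). Alternatives changed the unit of replication, filter, scaling, variance model, test, probe set rule, Xist level and samples.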

Additional observations from a re-analysis of the deposited data

How the results depend on the processing

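No fold change of the 5 genes reversed in any setting. Of the 4 genes called lower in heterozygous tumors, 2 were called without moderation of the variance, against 2.22% of tested probe sets. Fshb (unmoderated t-test, adjusted p = 0.0635) and Tshb (0.113) were not called there. Their changes stayed at -5.89 and -3.90, with SEs of 1.26 and 1.18 in place of 0.93 and 0.87. Leaving out single samples gave changes of -4.54 to -3.28 for Tshb, whose call was lost without either normal sample, and of -2.63 to -1.67 for Cga. Cga was called with the 12 arrays separate (-2.19), the pair as a random block (-2.19), an intensity trend in the variance (-2.19), Xist as a covariate (-2.73), low-Xist samples alone (-2.68, chosen after the data were seen) and without heterozygous sample 7-8. In the homozygous tumor the count called lower, 0, became 3 with the 12 arrays separate (against 1.97% of tested probe sets) and 3 with the random block (1.43%). It became 4 by the one-way F test (1.96%), 1 without heterozygous 5-6 (1%) and 2 without 7-8 (1.24%), and stayed 0 without heterozygous 1-2 or 3-4. Against heterozygous tumors the count called higher, 0, became 1 with the 12 arrays separate (1.36%) and 4 by the F test (1.28%), which does not test that contrast alone. Gnrhr had no value with probe sets of a gene averaged, since that mean missed the filter.

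Array numbers 1 and 2 recur in all groups, but the deviations of the arrays of one number correlated at -0.02 to 0.07, so that they share only a number. With the number as a replicate block, Cga changed by -3.74 in heterozygous tumors and was called. Only heterozygous arrays 1 and 2, 1 pair, enter that fit. Its calls therefore do not measure the spread between samples, and its counts are not given.

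Over all tested probe sets, 263 lower and 308 higher calls in the homozygous tumor became 483 and 720 with the 12 arrays separate, 4 and 1 without moderation, 32 and 41 without normal replicate 1 and 28 and 36 without normal replicate 2. The 923 lower and 1203 higher calls in heterozygous tumors became 543 and 691 without moderation. Of the gene list counts, 49 moved by more than 1.5 times over 3 settings, and 257 did not. Centring arrays on their median or on housekeeping genes moved the median of all probe sets by at most 0.08 on the log2 scale.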
